A study of Mus musculus with 6 samples.

Results

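The 10 classical inflammatory cytokine and interleukin-1 (IL-1) pathway genes, Il1a, Il1b, Il1rn, Il18, Nlrp3, Casp1, Tnf, Il6, Il12b and Il23a, were followed in mouse macrophages from infarcted hearts, intact hearts and the peritoneal cavity. They were taken by name, and every probe of the bead array to which the platform table gives 1 of these symbols was used. This gave 17 probes for 9 of the 10 genes, out of 19057 named genes with a probe. The platform table names no Il12b probe, so Il12b was not analysed here. The cells were called M2-like by the submitters, who defined them by the surface proteins CD206, F4/80 and CD11b. The 3 groups of 2 arrays each were cells of hearts with myocardial infarction (MI heart), cells of intact hearts and cells of the peritoneal cavity, all from C57BL/6 mice aged 10 weeks with no other treatment or allele named in the labels. The time after infarction, the number of mice behind an array and the sorting protocol are not given in the labels, so p-values measure the spread between these arrays, which may be technical.

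IL-1 alpha and IL-1 beta are cytokines that act on one receptor and set off fever, leukocyte recruitment and the expression of further cytokines, and the IL-1 receptor antagonist occupies the same receptor without signalling. IL-1 beta and IL-18 are made as inactive precursors, which the protease caspase-1 cleaves after a sensor such as NLRP3 has assembled an inflammasome, so transcript levels do not show how much active cytokine is released. In the infarcted heart these cytokines are known as early signals between injured myocardium and arriving leukocytes, and macrophages are among their sources.

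A probe was taken as above background on an array where its deposited detection p-value was under 0.05, which held for 12433 to 14606 of 45281 probes. Values below are normalized log2 signals, on which the lowest probes above background lay between 4.42 and 4.52, and a level of 1 probe is not set against that of another. All 7 macrophage markers with a probe were above background on every array, among them Adgre1, Itgam and Mrc1, which encode F4/80, CD11b and CD206. Mrc1 stood at 8.64 and 9.07 in MI heart, 9.57 and 9.51 in intact heart and 5.20 and 4.99 in peritoneal cells, higher than in peritoneal cells both in MI heart (log2 difference 3.76, limma adjusted p = 5.56e-06) and in intact heart (4.45, adjusted p = 2.31e-06). Itgam ran the other way, with 7.15 and 6.86 in MI heart, 6.32 and 5.64 in intact heart and 8.16 and 7.96 in peritoneal cells. It was lower than in peritoneal cells in MI heart (log2 -1.05, adjusted p = 0.0152) and in intact heart (-2.08, adjusted p = 0.000332), and higher in MI heart than in intact heart (1.02, adjusted p = 0.0303). Adgre1 was called in none of the 3 comparisons (adjusted p = 0.525 between the heart groups, 0.777 and 0.25 against peritoneal cells). Lyz2, the lysozyme of myeloid cells, was lower in MI heart (log2 -0.88, adjusted p = 0.00824) and in intact heart (-1.24, adjusted p = 0.00107) than in peritoneal cells. Fcgr1, a receptor for antibodies, was higher in MI heart than in intact heart (0.85, adjusted p = 0.0155) and than in peritoneal cells (1.37, adjusted p = 0.000556). The groups thus differed in macrophage markers themselves, and the part of this in the cytokine results was not tested.

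The upstream sequences of 5 of the genes are shown so that genes of each pattern described below can be read side by side: higher in heart cells of both groups (Il1a, Il1b and Tnf), called in no comparison (Casp1) and near background (Il6). The TATA matches do not follow these patterns over all genes. Nlrp3, with 2 windows, and Il1rn, with 3, were higher in heart cells too and hold 0 matches to TATAAA within 250 bases upstream, while Il18, near background, holds one on the other strand 175 to 170 bases before the start. Each line holds the 100 bases before the annotated transcript start, 5′ to 3′ on the strand of the gene, from RefSeq on GRCm38.p6. Capitals mark matches on either strand to the TATA hexamer TATAAA, to the AP-1 element TGANTCA or to the NF-kB consensus.
Il1a, chr2:129309973-129310072, minus strand: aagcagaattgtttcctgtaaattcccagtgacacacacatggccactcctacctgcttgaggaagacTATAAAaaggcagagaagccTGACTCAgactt
Il1b, chr2:129371140-129371239, minus strand: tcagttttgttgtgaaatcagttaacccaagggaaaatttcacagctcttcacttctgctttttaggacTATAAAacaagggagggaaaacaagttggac
Tnf, chr17:35202008-35202107, minus strand: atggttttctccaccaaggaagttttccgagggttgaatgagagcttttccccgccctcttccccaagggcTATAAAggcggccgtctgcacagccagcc
Casp1, chr9:5298417-5298516, plus strand: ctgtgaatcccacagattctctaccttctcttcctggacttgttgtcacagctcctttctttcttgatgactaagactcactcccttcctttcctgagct
Il6, chr5:30013014-30013113, plus strand: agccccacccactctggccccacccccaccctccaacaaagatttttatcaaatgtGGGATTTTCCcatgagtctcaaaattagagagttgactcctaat
The first base of TATAAA lay 32 bases before the start in Il1a, 31 in Il1b and 29 in Tnf, and 12.4% of 32851 annotated promoters hold this hexamer within 250 bases upstream. The AP-1 match of Il1a lay 12 to 6 bases before the start, and 6.75% of promoters hold such a match within 250 bases. Further upstream, AP-1 matches lay in a window of Il1rn (141 to 135 bases before the start) and in Il6 (249 to 243). The NF-kB match of Il6 lay 44 to 35 bases before the start, and 3.9% of promoters hold one within 250 bases. A window of Nlrp3 holds another, 186 to 177 bases before its start. Neither motif follows the patterns over all genes. A match of letters is a description of the window and shows neither binding nor its absence.

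The plainest pattern was a difference between sites: Il1a, Il1b, Il1rn, Nlrp3 and Tnf were higher in heart macrophages of both groups than in peritoneal macrophages. Between the heart groups, Il1a and its antagonist partner Il1rn were higher in MI heart, whereas Il1b, Nlrp3, Casp1, Tnf and Il23a did not pass the test. Of the 9 genes with a probe, 7 were above background on both arrays of at least 1 group and were tested with limma, with p-values adjusted over all 10533 features. Between MI heart and intact heart 2 of the 7 were called higher, against 4.55% of all features called higher and 4.96% called lower. Between MI heart and peritoneal cavity 5 of the 7 were called higher, against 9.16% of all features called higher and 8.45% lower. Between intact heart and peritoneal cavity it was again 5 of the 7, against 12.5% of all features higher and 12.8% lower. The number called lower was 0 in each comparison, also at an unadjusted p under 0.05 and under each of 16 alternative settings. The median log2 difference of the 7 genes was 0.19, 2.75 and 2.16 in the 3 comparisons in this order, beside -0.0033, -0.049 and -0.026 over all features. The 2 peritoneal comparisons share their peritoneal arrays. Il1b, Il1rn and Tnf passed the detection filter through the heart groups only, which favours a difference from peritoneal cavity. These counts therefore describe the genes and carry no further weight.

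**Figure D1:**
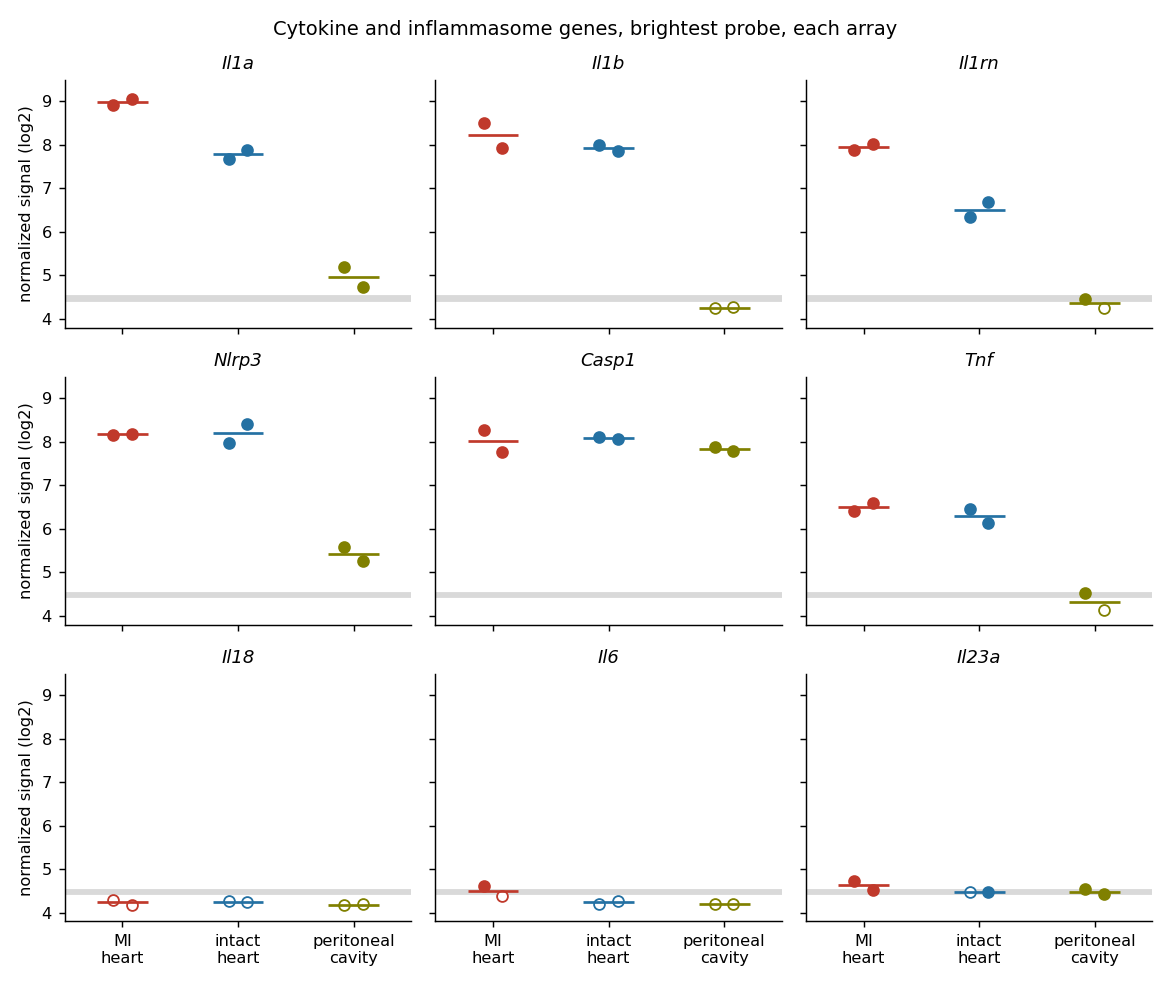
Normalized log2 signal (vertical axis) of the brightest probe of each of the 9 genes with a probe, on each array of MI heart, intact heart and peritoneal cavity. Points are arrays, bars are group means, open points are not above background, and the grey band spans the lowest signals of probes above background (4.42 to 4.52); Il1b lies at 7.87 or more on all 4 heart arrays and at 4.26 on both peritoneal arrays.

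Il1a encodes IL-1 alpha, which is active without caspase-1 and is known as an alarm signal of damaged cells. Its log2 signal was 8.93 and 9.07 in MI heart, 7.68 and 7.89 in intact heart and 5.20 and 4.74 in peritoneal cavity, above background on all 6 arrays. The 3 groups did not overlap, and their order was MI heart, intact heart, peritoneal cavity. Il1a was 2.32-fold higher in MI heart than in intact heart (log2 difference 1.21 ± 0.19, SE, n = 2 arrays each, limma adjusted p = 0.00691). This call needed both MI heart arrays: the log2 difference was 1.28 without replicate 1 and 1.15 without replicate 2, and the adjusted p was then 0.0597 and 0.0793. It was also lost without the filter on detection (adjusted p = 0.0587). The difference from peritoneal cells was 16.4-fold in MI heart (log2 4.03 ± 0.19, adjusted p = 4.73e-06) and 7.05-fold in intact heart (log2 2.82 ± 0.19, adjusted p = 1.78e-05). These sizes depend on the handling of background: the log2 differences from peritoneal cells were 2.58 in MI heart and 1.57 in intact heart without background correction, 2.59 and 1.58 in the authors' normalized table, and 3.06 and 1.96 with an offset of 50, all called. In array signal, fewer cells of a kind and less RNA per cell cannot be told apart.

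Il1b, which encodes the IL-1 form released after caspase-1 cleavage, gave the widest gap to peritoneal cells in intact heart among the 7 tested genes. Its signal was 8.50 and 7.93 in MI heart, 8.0 and 7.87 in intact heart and 4.26 on both peritoneal arrays, where it was not above background. The heart groups overlapped, and both stood far above the peritoneal arrays. Il1b was at least 13.8-fold higher in MI heart than in peritoneal cavity (adjusted p = 6.12e-06) and at least 11.3-fold higher in intact heart (adjusted p = 6.02e-06). Such a lower bound sets the brighter group's mean against the lowest signal above background, and it holds only for the background correction and offset used. The log2 differences from peritoneal cells were 2.16 in MI heart and 1.92 in intact heart without background correction and 2.64 and 2.39 with an offset of 50, all called. Between MI heart and intact heart the log2 difference was 0.28 ± 0.20, with a 95% interval of -0.18 to 0.75 and an adjusted p of 0.435. Without MI heart replicate 1 the difference was 0.00. On that array S100a9, a calgranulin gene of neutrophils and monocytes, stood at 7.25 against 5.42 on MI heart replicate 2, and its part in the Il1b value was not tested.

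Il1rn encodes the IL-1 receptor antagonist. Its signal was 7.89 and 8.02 in MI heart, 6.33 and 6.69 in intact heart and 4.46 and 4.25 in peritoneal cavity, where it was above background on 1 of 2 arrays. The groups did not overlap and had the same order as those of Il1a. The antagonist was 2.73-fold higher in MI heart than in intact heart (log2 1.45 ± 0.18, adjusted p = 0.00243). It was 12.1-fold higher in MI heart than in peritoneal cavity (log2 3.60 ± 0.18, adjusted p = 5.77e-06) and 4.45-fold higher in intact heart (log2 2.16 ± 0.18, adjusted p = 6.15e-05). Without background correction the log2 differences were 1.01 between the heart groups, 1.90 for MI heart and 0.90 for intact heart against peritoneal cavity. In the authors' normalized table the peritoneal differences were 1.91 and 0.91. All 3 calls were kept under each of the 15 alternatives in which Il1rn could be tested. Among the IL-1 genes, ligand Il1a and antagonist Il1rn were thus both higher in MI heart, while the interval of Il1b included 0; the difference between these genes was not tested.

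Il18 encodes the other IL-1 family cytokine cleaved by caspase-1. Its brighter probe gave 4.29 and 4.19 in MI heart, 4.26 and 4.25 in intact heart and 4.17 and 4.19 in peritoneal cavity. Neither of its 2 probes was above background on any array, so no level can be ordered.

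Nlrp3, the inflammasome sensor, gave 8.16 and 8.19 in MI heart, 7.98 and 8.42 in intact heart and 5.59 and 5.27 in peritoneal cavity. The 2 heart groups overlapped, and the peritoneal arrays lay below all 4 heart arrays while remaining above background. Nlrp3 was 6.71-fold higher in MI heart than in peritoneal cavity (log2 2.75 ± 0.20, adjusted p = 3.16e-05) and 6.82-fold higher in intact heart (log2 2.77 ± 0.20, adjusted p = 2.43e-05). These log2 differences were 1.71 and 1.74 without background correction, and both were called. Between MI heart and intact heart the log2 difference was -0.024, with a 95% interval of -0.48 to 0.43 (adjusted p = 0.959).

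Casp1, the protease of the same complex, was called in none of the 3 comparisons. Its signal was 8.26 and 7.76 in MI heart, 8.10 and 8.07 in intact heart and 7.89 and 7.78 in peritoneal cavity. All 6 arrays lay within a narrow range, and MI heart overlapped both other groups. Its log2 difference was -0.073 for MI heart minus intact heart (95% interval -0.51 to 0.37, adjusted p = 0.866). Against peritoneal cavity it was 0.18 for MI heart (interval -0.26 to 0.62, adjusted p = 0.5998) and 0.25 for intact heart (interval -0.19 to 0.69, adjusted p = 0.381). The intervals of Nlrp3 against peritoneal cavity, 2.29 to 3.20 for MI heart and 2.32 to 3.22 for intact heart, lay wholly above those of Casp1.

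Tnf encodes tumour necrosis factor, an early macrophage cytokine with its own pair of receptors. Its signal was 6.40 and 6.59 in MI heart, 6.47 and 6.14 in intact heart and 4.51 and 4.12 in peritoneal cavity, where 1 of 2 arrays was above background. The heart groups overlapped, and both lay above the peritoneal arrays. Tnf was 4.53-fold higher in MI heart than in peritoneal cavity (log2 2.18 ± 0.20, adjusted p = 0.00011) and 3.96-fold higher in intact heart (log2 1.98 ± 0.20, adjusted p = 0.000157). Both were called without background correction too, but the log2 differences were then 0.94 and 0.83, and 0.95 and 0.84 in the authors' normalized table. For MI heart minus intact heart the log2 difference was 0.19, with a 95% interval of -0.26 to 0.64 (adjusted p = 0.605).

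Il6 and Il23a were at the edge of detection. The Il6 probe, for a cytokine of the acute-phase response, gave 4.62 and 4.40 in MI heart, 4.21 and 4.26 in intact heart and 4.20 on both peritoneal arrays. It was above background on MI heart replicate 1 only and was not tested. Il23a, the subunit specific to IL-23, gave 4.74 and 4.52 in MI heart, 4.48 on both intact heart arrays and 4.54 and 4.43 in peritoneal cavity. It was above background on 5 of 6 arrays, its log2 differences were 0.15 for MI heart minus intact heart, 0.14 for MI heart minus peritoneal cavity and -0.0055 for intact heart minus peritoneal cavity, and the adjusted p-values in this order were 0.623, 0.608 and 0.986. A second Il23a probe was above background on no array.

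**Figure D2:**
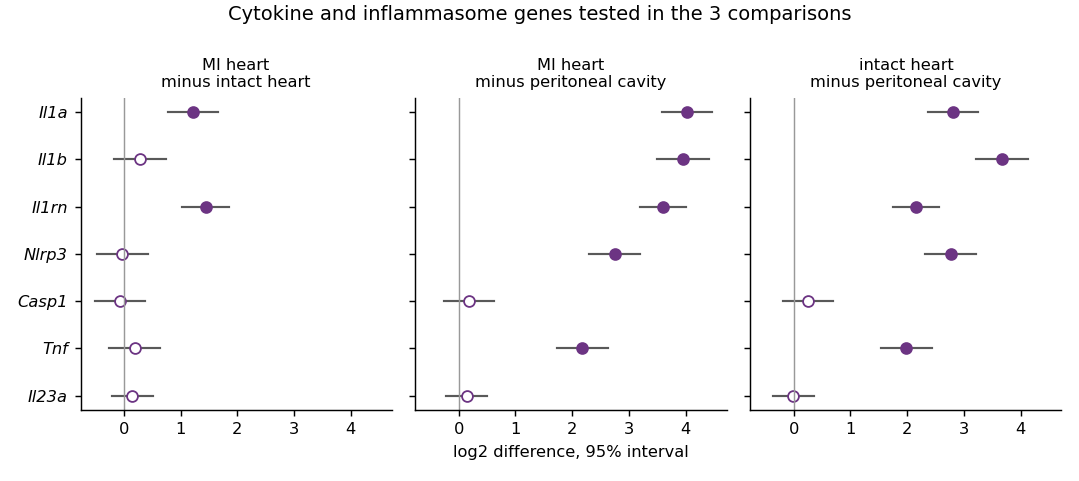
Log2 difference (horizontal axis) of the 7 tested genes for MI heart minus intact heart, MI heart minus peritoneal cavity and intact heart minus peritoneal cavity. Points are differences of group means, lines are 95% intervals, and filled points passed an adjusted p of 0.05; Il1a and Il1rn are filled in all 3 panels, and Casp1 and Il23a in none.

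Genes with several probes allow the same comparison to be read on separate bead sequences. The second Il1a probe was much dimmer, with 5.60 and 5.79 in MI heart, 4.50 and 4.80 in intact heart and 4.39 and 4.20 in peritoneal cavity. Fitted with every probe on its own, it was 2.06-fold higher in MI heart than in intact heart (adjusted p = 0.00938) and at least 2.40-fold higher in MI heart than in peritoneal cavity. Its difference between intact heart and peritoneal cavity was not called (log2 0.36, adjusted p = 0.173), unlike that of the brighter probe. Of the 4 Il1rn probes, 3 were tested, and all 3 were higher in MI heart than in intact heart, by log2 1.45, 1.19 and 1.63. The probe with 1.19 is annotated to another transcript of the gene than the other 3. The dimmest tested Il1rn probe did not separate intact heart and peritoneal cavity (log2 0.43, adjusted p = 0.127), and a further one was above background on no array. The 2 Nlrp3 probes gave log2 differences of 2.75 and 2.84 for MI heart minus peritoneal cavity, and the 2 Tnf probes gave 2.18 and 2.15. For MI heart minus intact heart the second Nlrp3 probe gave 0.11 and the second Tnf probe 0.21, and neither was called. Over the 12 probes tested, 5 were higher in MI heart than in intact heart, against 4.38% of all 14817 probes fitted on their own. In MI heart 10 were higher than in peritoneal cavity, against 8.9% of all probes, and in intact heart 8, against 12%. The second Il1a probe and the dimmest tested Il1rn probe passed the detection filter through MI heart only, which favours a difference from both other groups. The second Tnf probe and the Il1rn probe with 1.19 passed it through the heart groups only, which favours a difference from peritoneal cavity. Probes of 1 gene share its transcripts and are not replicates. The probe counts are therefore a description and carry no further weight.

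**Figure D3:**
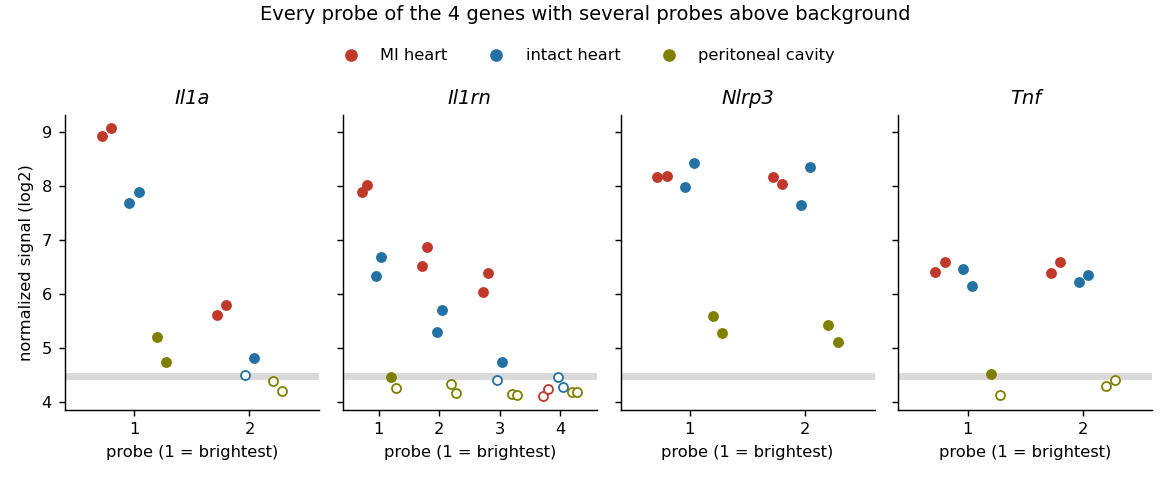
Normalized log2 signal (vertical axis) of every probe of Il1a, Il1rn, Nlrp3 and Tnf on each array, with probes ordered by mean signal (horizontal axis). Colours give the group, open points are not above background, and the grey band spans the lowest signals of probes above background; in the 3 tested Il1rn probes both MI heart arrays lie above both intact heart arrays.

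The pathway differences that follow are sized with the background correction. Without it, the log2 differences of the 38 pathway calls were 33.2% to 94.4% of the values given, with a median of 50.4%. Of the folds, 20 moved by more than 1.5 times. Counts of called genes, also in the stress and marker lists, stand beside the shares over all features. Between MI heart and intact heart these were 4.55% higher and 4.96% lower. Against peritoneal cavity they were 9.16% and 8.45% in MI heart and 12.5% and 12.8% in intact heart. No list was tested as a set against these shares. A gene of any list that was above background in only some groups passed the detection filter through those groups. This favours a difference from the remaining groups, so the counts are descriptions.

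The receptors and binding proteins of IL-1 and IL-18 had 8 genes with a probe, of which 4 were tested. Of these 4, 1 was called in each comparison, and it was Il1r2, the decoy receptor that binds IL-1 without signalling. Il1r2 stood at 6.87 and 6.70 in MI heart, 5.51 and 4.95 in intact heart and 4.14 and 4.30 in peritoneal cavity. The groups did not overlap, in the order seen for Il1a and Il1rn. It was 2.94-fold higher in MI heart than in intact heart (adjusted p = 0.00304), at least 5.11-fold higher in MI heart than in peritoneal cavity (adjusted p = 6.35e-05) and at least 1.74-fold higher in intact heart (adjusted p = 0.00779). The last call was lost without peritoneal replicate 1 (adjusted p = 0.0717). The 3 log2 differences of Il1r2 were 1.56, 2.57 and 1.01, and without background correction 0.77, 1.14 and 0.37. Il1r2 passed the detection filter through the heart groups only, which favours a difference from peritoneal cavity. Il1r1, the signalling receptor, gave 5.00 and 5.09 in MI heart, 4.79 and 5.04 in intact heart and 4.82 and 4.72 in peritoneal cavity, and none of its 3 differences was called (adjusted p = 0.684, 0.32 and 0.568). Il18bp, the binding protein that holds IL-18, had a log2 difference of -0.44 between MI heart and intact heart (95% interval -0.78 to -0.10, adjusted p = 0.106). The median of the 4 was -0.16 between the heart groups, 0.10 for MI heart and 0.29 for intact heart against peritoneal cavity. None of the other IL-1 family ligands, 6 of which had a probe, was above background on both arrays of a group.

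Of 12 tested genes of the inflammasome and of cytokine release, 2 were called lower in MI heart than in intact heart, and the list's median log2 difference was -0.058. P2rx7, the ATP-gated channel known to trigger NLRP3, gave 5.92 and 5.98 in MI heart, 7.22 and 7.13 in intact heart and 5.98 and 5.73 in peritoneal cavity. The intact heart arrays were the highest, and the other groups overlapped. The log2 difference was -1.23 ± 0.16 between MI heart and intact heart (adjusted p = 0.00293) and 1.32 ± 0.16 between intact heart and peritoneal cavity (adjusted p = 0.000509). Txnip, which binds thioredoxin and is reported to engage NLRP3, gave 7.80 and 7.61 in MI heart, 9.02 and 8.79 in intact heart and 9.56 and 9.69 in peritoneal cavity. Its log2 difference was -1.20 between MI heart and intact heart (adjusted p = 0.00384, but 0.0517 without MI heart replicate 2) and -1.92 between MI heart and peritoneal cavity (adjusted p = 9.2e-05). Between intact heart and peritoneal cavity it was -0.72 (adjusted p = 0.0139), a call lost without intact heart replicate 2 (adjusted p = 0.0555) or either peritoneal array (0.057 and 0.0937). Both heart groups thus stood below the peritoneal arrays for Txnip and above them for Nlrp3.

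Against peritoneal cavity, 1 of the 12 was higher and 2 were lower in MI heart. In intact heart 2 were higher and 2 lower, and the medians in this order were 0.0091 and -0.074. These counts lie near the shares over all features, 9.16% and 8.45% in MI heart and 12.5% and 12.8% in intact heart. Casp4, an inflammatory caspase that responds to lipopolysaccharide inside the cell, lies next to Casp1 on chromosome 9 with no protein-coding gene between them. It gave 5.86 and 6.39 in MI heart, 6.85 and 6.76 in intact heart and 4.77 and 5.15 in peritoneal cavity. Its log2 difference from peritoneal cavity was 1.84 in intact heart (adjusted p = 0.000394) and 1.16 in MI heart (adjusted p = 0.00605, but 0.0657 without MI heart replicate 2 and 0.0702 without peritoneal replicate 1). Without background correction these were 0.88 and 0.49. Pycard, the adaptor that joins NLRP3 to caspase-1, gave 5.59 and 5.37 in MI heart, 4.77 and 4.90 in intact heart and 5.85 and 6.95 in peritoneal cavity. It was lower in intact heart than in peritoneal cavity (log2 -1.57, adjusted p = 0.00605), a call lost without background correction (log2 -0.70, adjusted p = 0.0534), in the authors' normalized table (0.054) and without the detection filter (0.0914). Naip5, a flagellin sensor with close paralogues whose transcripts a probe may not separate, was lower in MI heart than in peritoneal cavity (log2 -1.44, adjusted p = 0.0176). That call was lost without either MI heart array (adjusted p = 0.13 and 0.0972) or peritoneal replicate 1 (0.0736), and also without background correction (log2 -0.74, adjusted p = 0.096), in the authors' normalized table (0.0977) and with an offset of 50 (0.0866).

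Downstream of the IL-1 receptor, 1 of 12 tested genes was called higher in MI heart than in intact heart. This was Irak3, a kinase family member that restrains the pathway, at 6.10 and 5.54 in MI heart, 4.73 and 4.91 in intact heart and 5.50 and 4.98 in peritoneal cavity. Its log2 difference of 1.00 (adjusted p = 0.0348) was not called when any 1 of the 6 arrays was left out, with adjusted p between 0.0531 and 0.229. It was not called either without background correction (log2 0.39, adjusted p = 0.105), in the authors' normalized table (0.105) or with an offset of 50 (0.0935). The median of the list was -0.062. Against peritoneal cavity 2 of the 12 were higher in MI heart (median 0.33), and 3 were higher and 1 lower in intact heart (median 0.15). Irak2, a kinase of the pathway, gave 6.78 and 6.63 in MI heart, 6.30 and 6.59 in intact heart and 5.17 and 4.78 in peritoneal cavity, with log2 differences from peritoneal cavity of 1.73 (adjusted p = 0.000343) and 1.47 (adjusted p = 0.000736), or 0.81 and 0.66 without background correction. Myd88, the adaptor of the receptor, differed from peritoneal cavity by log2 0.91 in MI heart (adjusted p = 0.0065) and by 1.24 in intact heart (adjusted p = 0.000991). The MI heart call for Myd88 was lost without MI heart replicate 1 (adjusted p = 0.0674) or peritoneal replicate 2 (0.0643). The further calls in intact heart, Tab2 (log2 0.54, adjusted p = 0.0421) and Irak1 (log2 -0.72, adjusted p = 0.0238), were lost in 5 and 3 of the 6 fits without 1 array, where the adjusted p reached 0.183 and 0.13.

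Of 6 tested genes for the shedding, receptors and signalling of TNF, 4 were higher in MI heart and 3 in intact heart than in peritoneal cavity. Between the heart groups limma called 0 of the 6, and at an unadjusted p under 0.05 1 was higher and 1 lower in MI heart. The list's median log2 difference was -0.077 between the heart groups, 0.76 for MI heart and 0.72 for intact heart against peritoneal cavity. Adam17, the sheddase that frees TNF from the membrane, gave 9.17 and 8.79 in MI heart, 8.96 and 9.10 in intact heart and 8.23 and 8.17 in peritoneal cavity. Rhbdf2, which escorts ADAM17 to the cell surface, gave 5.76 and 5.90 in MI heart, 5.75 and 6.20 in intact heart and 4.65 and 4.75 in peritoneal cavity. For both genes the heart groups overlapped above the peritoneal arrays. The log2 differences of Rhbdf2 from peritoneal cavity were 1.13 in MI heart (adjusted p = 0.00352) and 1.27 in intact heart (adjusted p = 0.00145), or 0.42 and 0.50 without background correction. Those of Adam17 were 0.78 (adjusted p = 0.0158) and 0.84 (adjusted p = 0.00894), but without a single array they reached an adjusted p of 0.128 in MI heart (MI heart replicate 1) and of 0.0654 in intact heart (peritoneal replicate 2). Leaving out peritoneal replicate 1 also ended both Adam17 calls (0.0833 and 0.0545), as did peritoneal replicate 2 in MI heart (0.101). Tnfrsf1b, the second TNF receptor, was higher in MI heart than in peritoneal cavity (log2 1.26, adjusted p = 0.00252; 0.60 without background correction). Birc3, an inhibitor of apoptosis in TNF signalling, was higher in intact heart (log2 1.25, adjusted p = 0.00168, and 0.46 without background correction). It passed the detection filter through the heart groups only, which favours a difference from peritoneal cavity. Its MI heart difference of 0.74 (adjusted p = 0.0284), named after its value was seen, was not called without either MI heart array (0.111 and 0.176) or peritoneal replicate 1 (0.193). It was also lost without background correction (log2 0.25, adjusted p = 0.0908), in the authors' normalized table (0.0909) and with an offset of 50 (0.0706).

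Among 9 tested relatives, receptors and signal carriers of IL-6 and IL-12, 2 cytokines of the IL-6 family were higher in MI heart than in intact heart, although Il6 itself was near background. The median of the 9 was -0.079 between the heart groups, 0.25 for MI heart and 0.19 for intact heart against peritoneal cavity. Osm, oncostatin M, gave 10.61 and 10.67 in MI heart, 9.56 and 9.61 in intact heart and 8.16 and 7.81 in peritoneal cavity. Lif, leukaemia inhibitory factor, gave 6.20 and 5.61 in MI heart, 4.30 and 4.34 in intact heart and 4.18 and 4.22 in peritoneal cavity, above background in MI heart only. The MI heart arrays were the highest for both genes. Osm was 2.08-fold higher in MI heart than in intact heart (adjusted p = 0.00765), with an adjusted p of 0.0663 without MI heart replicate 1 and 0.0779 without replicate 2. Lif was at least 2.66-fold higher in MI heart than in intact heart (adjusted p = 0.0027) and at least 2.78-fold higher than in peritoneal cavity (adjusted p = 0.000543). Its log2 differences were 1.59 and 1.71, and without background correction 0.59 and 0.66. Lif passed the detection filter through MI heart only, which favours a difference from both other groups.

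Against peritoneal cavity, 4 of the 9 were higher and 1 lower in MI heart, and the counts were the same in intact heart. Osm differed from peritoneal cavity by log2 2.65 in MI heart (adjusted p = 1.55e-05) and 1.60 in intact heart (adjusted p = 0.000245). Socs3, the feedback inhibitor of cytokine receptors, gave 8.88 and 8.34 in MI heart, 8.86 and 8.76 in intact heart and 6.52 and 6.92 in peritoneal cavity, a log2 difference of 1.89 (adjusted p = 0.000448) and 2.09 (adjusted p = 0.000214). Ebi3, a subunit of IL-27, gave 6.68 and 6.46 in MI heart, 7.56 and 7.10 in intact heart and 5.65 and 5.07 in peritoneal cavity. Its difference was log2 1.97 in intact heart (adjusted p = 0.000462). In MI heart it was 1.21 (adjusted p = 0.00788; named after its value was seen), and this call was lost without MI heart replicate 1 (0.0822) or peritoneal replicate 2 (0.0755). Without background correction the log2 differences of Ebi3 were 1.09 in intact heart and 0.59 in MI heart. Il27ra, the IL-27 receptor chain, ran the other way, with log2 differences of -1.52 in MI heart (adjusted p = 0.00263) and -1.69 in intact heart (adjusted p = 0.00114), or -0.61 and -0.67 without background correction. Stat3, a transcription factor below these receptors that was also named after its value was seen, was higher in intact heart (log2 0.80, adjusted p = 0.0118) but not without intact heart replicate 2 (0.0503) or peritoneal replicate 2 (0.0927).

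**Figure D4:**
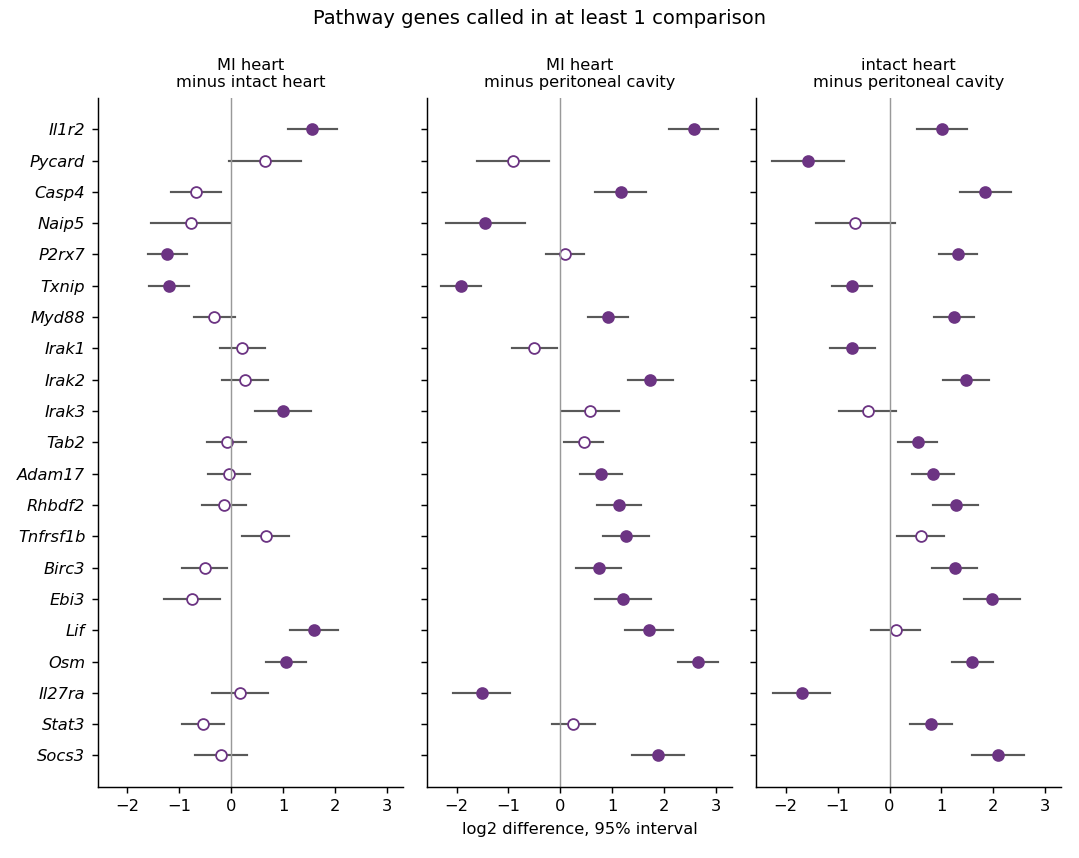
Log2 difference (horizontal axis) of the 21 pathway genes called in at least 1 comparison, for MI heart minus intact heart, MI heart minus peritoneal cavity and intact heart minus peritoneal cavity. Points are differences of group means, lines are 95% intervals, and filled points passed an adjusted p of 0.05; Il1r2 and Osm are filled to the right of 0 in all 3 panels and Txnip to the left.

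Other gene groups moved with these comparisons. The summed linear signal of 17 immediate early and heat-shock genes, known to rise when tissue is dissociated, was 9779 to 9980 in MI heart, 14550 to 14710 in intact heart and 3448 to 3621 in peritoneal cavity. Of these 17, 14 were higher in MI heart and 16 in intact heart than in peritoneal cavity, and 10 were lower in MI heart than in intact heart. The shares over all features in the same order were 9.16%, 12.5% and 4.96%. The list thus ran in the same direction as Il1a, Il1b, Il1rn, Nlrp3 and Tnf against peritoneal cavity. Between the heart groups those 10 genes ran against Il1a and Il1rn, 0 were higher and 7 were not called. Among the 7 were Nfkbia (log2 0.057), Zfp36 (-0.012), Dusp1 (-0.0011), Ier3 (0.21) and Junb (0.04), while Egr1 stood at -1.12. Like Il1b, Nlrp3 and Tnf, all of these were called higher in both heart groups than in peritoneal cavity. The part of the list in the cytokine results was not tested.

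**Figure D5:**
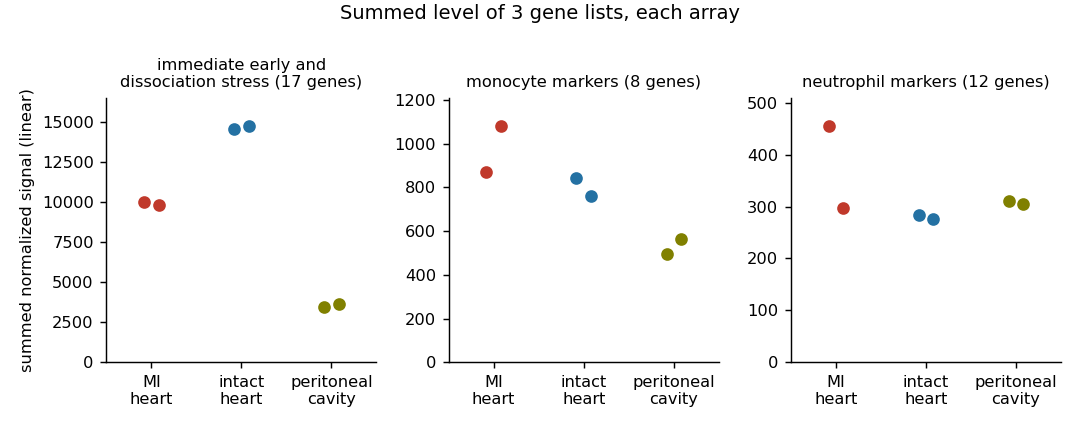
Summed linear normalized signal (vertical axis) of the immediate early and dissociation stress genes, the monocyte markers and the neutrophil markers on each array of MI heart, intact heart and peritoneal cavity. Genes not above background are included in the sums, and in intact heart F13a1 makes up most of the monocyte sum. Points are arrays; the stress genes are highest in intact heart (14550 to 14710) and lowest in peritoneal cavity (3448 to 3621), and 1 MI heart array stands apart for the neutrophil markers (454.5).

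Summed signals count every gene of a list with a probe, and a gene not above background still adds its near-floor signal. The 8 monocyte markers summed to 869.7 to 1080 in MI heart, 759.1 to 845 in intact heart and 495.2 to 563.8 in peritoneal cavity. Above background there were 8, 2 and 5 of them. Between MI heart and intact heart 5 were higher and 1, F13a1, was lower (log2 -0.95, limma adjusted p = 0.0111). F13a1 stood at 9.42 and 9.22 in intact heart and made up most of the sum there. The order of the sums is therefore not that of most of the markers. Plac8 gave 7.23 and 7.02 in MI heart and was above background on no array of the other groups, so it passed the detection filter through MI heart only. The 12 neutrophil markers summed to 296.4 to 454.5 in MI heart, 276 to 283.9 in intact heart and 304.5 to 311.1 in peritoneal cavity. Per array 3 to 4 of them were above background in both heart groups and 2 to 3 in peritoneal cavity. Camp, Cxcr2, Mmp8, Mpo, Ngp and Retnlg were so on no array, and most of these sums is near-floor signal. Of 4 tested, S100a9 was higher in MI heart than in intact heart (log2 1.91, limma adjusted p = 0.0355) and peritoneal cavity (2.04, adjusted p = 0.0158). It passed the detection filter through MI heart only. Csf3r was lower than in peritoneal cavity in MI heart (-0.81, adjusted p = 0.00986) and intact heart (-1.42, adjusted p = 0.000404). Ltf and Mmp9 were called in no comparison. On MI heart replicate 1, the array with 454.5, S100a9 stood at 7.25 and Mmp9 at 6.35, against 5.42 and 4.99 on replicate 2. Mast cell markers (8 genes) summed to 308.2 to 462.2 in MI heart, 181 to 187.7 in intact heart and 996.5 to 1033 in peritoneal cavity. Only 1 of the 8 was tested, Hdc, the histamine-forming enzyme, at 8.36 and 7.45 in MI heart, 5.71 and 5.61 in intact heart and 9.81 and 9.73 in peritoneal cavity. Per array 1 to 2 of the 8 were above background in MI heart, 1 in intact heart and 1 to 4 in peritoneal cavity, and Mcpt4, Ms4a2 and Tpsb2 were so on no array. Dendritic cell markers (12 genes) summed to 250.6 to 251.7 in MI heart, 303.1 to 312.2 in intact heart and 244.3 to 247.3 in peritoneal cavity. Above background per array were 4, 4 to 5 and 3 to 4 of them, and Cd209a, Cd24a, Flt3, Itgae and Xcr1 on no array. Of 5 tested, 2 were lower in MI heart than in intact heart, Siglech (log2 -1.26, limma adjusted p = 0.0028) and Irf4 (-0.80, adjusted p = 0.03). Itgax, Ccr7 and Batf3 were not called there. Fibroblast markers (9 genes) summed to 219.9 to 224.2 in MI heart, 178.9 to 186.9 in intact heart and 171.4 to 177.2 in peritoneal cavity. Of these, 4 to 5, 2 and 1 were above background per array, and Col1a2, Postn and Tcf21 on no array. Col1a1, a collagen gene, was higher in MI heart than in intact heart (log2 1.04, adjusted p = 0.00503), as was 1 other of the 5 tested, Col5a1. Both passed the detection filter through MI heart only, which favours this difference. Cardiomyocyte markers (8 genes) summed to 203.7 to 207.3 in MI heart, 291.5 to 333.3 in intact heart and 169.9 to 171.1 in peritoneal cavity, with Tnni3 above background on no array. Of 5 tested, 2 were lower in MI heart than in intact heart, among them Myl2, a myosin light chain (log2 -1.36, adjusted p = 0.00584). Against peritoneal cavity 2 were higher in MI heart and 3 in intact heart, with Myl2 at log2 1.01 and 2.37. The part of these cells in the cytokine levels was not tested.

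The 7 tested genes were also correlated over the 6 arrays. The 5 called higher in heart cells than in peritoneal cells were set apart from Casp1 and Il23a by those same calls. The split is therefore no separate result. The 10 pairs among Il1a, Il1b, Il1rn, Nlrp3 and Tnf had Pearson correlations between 0.914 and 0.992, and the 11 pairs with Casp1 or Il23a had 0.341 to 0.649. These are descriptions over 6 arrays that share 3 groups, so they mostly follow the group means. By the same measure the named gene closest to Il1a was Odc1 (r = 0.997), that closest to Il1rn was Osm (r = 0.997), and that closest to Nlrp3 was Sdc4 (r = 0.997). For Il1b it was Tnfaip3 (r = 0.9985, signal 4.25 to 5.86, with its low end at background) and for Tnf Arhgap26 (r = 0.9996, signal 5.26 to 6.19). For Casp1 it was Slc66a2 (r = 0.986, signal 4.63 to 5.20) and for Il23a Rbl1 (r = 0.966, signal 4.22 to 4.79), both close to background. Each is the highest of 8244 tested named genes over only 6 arrays, so a high r carries little weight.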

How the data were processed

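Each of the 6 bead arrays has a column of signal intensity and one of detection p-values for 45281 probes, as deposited and per the file headers. The deposited intensity values are linear and not normalized (medians 79.8 to 83.9, lowest values 66.4 to 71.3). The scanner software is not given in the sources used here. A second deposited table of intensity values, brought by the authors to a common distribution (linear, not centred, medians 81.51 on every array), was an alternative. Its replicate columns are swapped for MI heart and peritoneal cavity by rank order, and the numbers of the first table were used. No per-sample column was left unused.

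Background and scale were handled by limma 3.58.1 (R 4.3.3): neqc with an offset of 16, quantile normalization and log2. Kept were 14817 probes whose detection p was below 0.05 on each array of some group. Of the probes, 34885 carry 1 symbol in the platform annotation, 18 carry several and 10378 none. Of the probes with 1 symbol, 34807 had an Entrez identifier found in the reference, and 0 symbols changed. The probe with the highest mean stood for a gene, giving 8244 genes and 2289 unnamed probes. Groups were fitted over all 6 arrays (lmFit, eBayes, 3 residual and 5.78 prior degrees of freedom), with two-sided tests and Benjamini-Hochberg adjustment over 10533 features. Only 2 arrays a group limit the precision. The fits were tested on values simulated around each feature's mean, with changes put into MI heart only. That check did not cover background correction, normalization or the detection filter. Same-numbered arrays of different groups had deviations correlated by 0.0829, 0.168 and 0.181, so numbers were not taken as pairs.

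In a lower bound the dimmer group, above background on neither array, is set on each array at the lowest signal above background, or at its own if higher. The members and gene lists were chosen with earlier results of these data known. Of each pathway list, up to 3 called genes per direction and comparison are named, largest difference first, and for each member the gene with the highest correlation. Promoters come from RefSeq (GRCm38.p6) and cover 9 of the 10 genes.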

Additional observations from a re-analysis of the deposited data

How the results depend on the processing

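Of 324 values of the 7 tested genes over 16 alternatives, 312 kept their direction and their side of the threshold, 3 lost a call and 9 turned their sign. The number of genes called higher in MI heart than in intact heart was 1 in place of 2 without the detection filter (Il1rn), 1 with detection p under 0.01 on all arrays (Il1a, with 3 genes tested), and between 1 and 2 when 1 array was left out. Under that stricter filter 2 genes, Il1a and Nlrp3, were called higher than in peritoneal cavity in MI heart and 2 in intact heart, since only 3 were tested. Il1a lost its MI heart call also without the filter (adjusted p = 0.0587), where 29453 features were tested. The sign changes were all in values that were not called. Between MI heart and intact heart these were Casp1 (0.27) and Nlrp3 (0.29) under median scaling and Nlrp3 on its other probe (0.11). In fits without 1 array, the range for MI heart minus intact heart was 0.00 to 0.57 for Il1b, -0.33 to 0.18 for Casp1 and -0.25 to 0.20 for Nlrp3. Against peritoneal cavity, Casp1 turned in intact heart under median scaling (-0.082), and without 1 array it ranged between -0.075 and 0.43 in MI heart, and Il23a between -0.057 and 0.045 in intact heart. The cause was not tested.

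Median scaling in place of quantile normalization moved the median of all features to 0.12 for MI heart minus intact heart, and to -0.07 and -0.18 for the peritoneal comparisons. Of all calls, 78.8% were then higher in MI heart than in intact heart against 47.9%, and 27.9% higher in intact heart than in peritoneal cavity against 49.4%. With the replicate block the called genes were again 2 between the heart groups (Il1a, adjusted p = 0.00548, and Il1rn, 0.00159) and 5 in MI heart against peritoneal cavity, and no call of the 7 genes changed. Of 38 pathway calls, 21 were kept under every alternative tried, 17 were lost under at least 1, and 0 turned their sign. Without the detection filter 11 were lost: Irak3 between the heart groups, Casp4, Naip5, Adam17, Birc3, Ebi3 and Il27ra in MI heart and Il1r2, Pycard, Irak1 and Tab2 in intact heart against peritoneal cavity. Median scaling ended the calls of Adam17 (both heart groups), Birc3 (MI heart), Tab2 and Stat3 (intact heart). Fits without 1 array or on 2 groups kept the features of the full fit. Without background correction, with the authors' normalized table and with an offset of 50, all calls of the 7 genes were kept with smaller differences; Irak3, Naip5 and Birc3 (MI heart) were lost. Signal close to background limits Il6, Il18 and Il23a.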
